A study of Mus musculus with 9 samples.

Results

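Integrins, laminins and nidogens, the genes of cell adhesion to the basement membrane and of leukocyte adhesion, were followed in mouse liver RNA. The members are the protein-coding genes whose symbols name an integrin alpha or beta subunit, a laminin chain or a nidogen, and 37 of the 16755 genes in the deposited table met this rule: 24 integrin subunits, 11 laminin chains and 2 nidogens. The rule uses symbols and no measured value, but this group of genes was chosen with earlier results of these data known. Itgad and Itgb6 were not analysed here. RNA was sequenced from 3 groups of 3 mice each, all with both Scd2 alleles floxed (Scd2f/f) on a background labelled C57BL/6. The Scd2f/f;CC mice also carried Cre recombinase under the Col1a1 promoter, which removes Scd2, a stearoyl-CoA desaturase, from Col1a1-expressing cells, in liver mainly activated hepatic stellate cells (HSC) and portal fibroblasts. The Scd2f/f;CC mice and 1 group of Scd2f/f mice had been injected with 10 mg/kg of the carcinogen diethyl nitrosamine (DEN) when 2 weeks old, and were fed Western alcohol diet (WAD) starting at 6 weeks. The labels give 4 months of diet, and the methods of the study give a longer time. Their tissue is called liver in the labels and tumor-adjacent liver (TAL) in the study, the name used here, although its methods for RNA use another abbreviation. The last group was liver of untreated Scd2f/f mice, here control liver, whose age the labels do not state, while the study gives all its mice only a common range of ages.

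Integrins are receptors made of 1 alpha and 1 beta subunit that span the membrane and tie the extracellular matrix, or a ligand on another cell, to the actin cytoskeleton through talin and kindlin. Subunit pairing sets the ligand: partners of Itgb1 include receptors of collagen, laminin and fibronectin, while the partners of Itgb2 are found on leukocytes and bind cell surface ligands such as ICAM1 and complement fragments. Laminins are secreted trimers of an alpha, a beta and a gamma chain that self-assemble into the sheet on which a basement membrane is built, and nidogens link that sheet to type IV collagen. In healthy liver the sinusoids lack a continuous basement membrane, and bile ducts, portal vessels and nerves have one. In fibrosis laminin and type IV collagen are deposited along the sinusoids.

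For each gene the table holds 1 mean of normalized counts per group, and no value of a single mouse, so no spread between mice was computed, no difference below was tested, and the depth of each sample is unknown. A difference is given as a ratio of group means or its log2, with no error, and whether it exceeds the spread between mice cannot be said. Ratios between the treated groups have Scd2f/f;CC TAL as numerator. Counts refer to a ratio of at least 2 in either direction among genes with a mean over the 3 groups of at least 1, a level passed by 11784 genes and by 29 of the 37 members. Counts and medians of cell type markers have no such limit unless stated. The 75th percentile of all genes was 15.5 in control liver, 15.5 in TAL of Scd2f/f mice and 15.4 in TAL of Scd2f/f;CC mice. Scd2 had means of 2.46 in control liver, 6.47 in TAL of Scd2f/f mice and 1.87 in TAL of Scd2f/f;CC mice, so the group with the deletion was the lowest. Col1a1, whose promoter drives the Cre, had means of 4.69, 19.6 and 4.51 in the same order. Of 7 hepatocyte markers in the table, Alb, or albumin, had means of 21300, 20900 and 22700, Cyp2e1 had 3460, 3990 and 4570, and all 7 lay within a log2 ratio of -0.71 to 0.35 in both comparisons.

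RefSeq promoters on GRCm38.p6, from 250 bases before to 50 bases after a start site, were found for 23 members. Those of Itgam and Itgax are shown as leukocyte integrins with higher means in TAL, and those of Lamb1 and Nid1 as basement membrane genes with lower means in Scd2f/f;CC TAL. Capitals mark GAGGAA on either strand, letters found in sites of the myeloid factor PU.1. They are printed 5′ to 3′ on the strand of the gene, which is the plus strand for all 4, at chr7:128062390-128062689 for Itgam, chr7:128129300-128129599 for Itgax, chr12:31265043-31265342 for Lamb1 and chr13:13437352-13437651 for Nid1.
Itgam: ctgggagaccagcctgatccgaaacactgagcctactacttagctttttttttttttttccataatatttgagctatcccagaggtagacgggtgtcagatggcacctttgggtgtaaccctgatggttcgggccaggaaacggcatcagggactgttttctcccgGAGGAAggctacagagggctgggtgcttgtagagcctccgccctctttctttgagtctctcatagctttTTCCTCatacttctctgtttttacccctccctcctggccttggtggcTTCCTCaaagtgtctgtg
Itgax: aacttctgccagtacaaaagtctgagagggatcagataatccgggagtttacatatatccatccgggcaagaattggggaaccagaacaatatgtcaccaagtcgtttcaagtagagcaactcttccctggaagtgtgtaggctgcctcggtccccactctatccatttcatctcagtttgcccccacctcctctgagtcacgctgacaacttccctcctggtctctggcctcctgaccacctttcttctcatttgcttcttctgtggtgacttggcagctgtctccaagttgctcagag
Lamb1: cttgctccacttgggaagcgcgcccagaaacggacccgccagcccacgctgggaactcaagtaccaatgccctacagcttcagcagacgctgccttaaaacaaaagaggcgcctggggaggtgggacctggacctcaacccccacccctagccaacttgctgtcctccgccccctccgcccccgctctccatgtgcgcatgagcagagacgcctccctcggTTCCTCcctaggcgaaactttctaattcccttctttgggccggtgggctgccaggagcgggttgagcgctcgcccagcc
Nid1: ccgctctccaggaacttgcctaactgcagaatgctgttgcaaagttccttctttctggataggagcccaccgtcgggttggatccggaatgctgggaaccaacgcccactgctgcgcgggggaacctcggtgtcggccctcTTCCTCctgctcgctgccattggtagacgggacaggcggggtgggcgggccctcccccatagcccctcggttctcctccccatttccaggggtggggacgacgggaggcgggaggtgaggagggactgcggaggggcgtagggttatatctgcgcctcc
Itgam held 3 matches of GAGGAA, Lamb1 and Nid1 1 each, and Itgax 0. The letters stood in 14 of 25 member promoters, counting both starts of Itga3 and of Lamb3, and in 28.3% of 32851 promoters of that length. GGGCGG, the GC box, stood in 13 of the 25 and in 35.7% of all promoters, and TATAAA in 0 of the 25 and in 13.6%. Each motif was searched on both strands and counted on its own, so matches can overlap. The median number of CpG was 12 in the member promoters and 7 in all, with 6 in Itgam, 5 in Itgax, 18 in Lamb1 and 20 in Nid1.

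Levels of different subunits were compared per kb of exon, from GENCODE M21 gene models. Itgb1, the common partner of most alpha subunits, had the highest level of all members in every group, with 30.9 normalized counts per kb in control liver, 42.4 in TAL of Scd2f/f mice and 37.2 in TAL of Scd2f/f;CC mice. It made up 83.6% of the summed beta subunit level in control liver and 76.0% in Scd2f/f TAL. Itgb5, a partner of Itgav that binds vitronectin, followed with 4.78 per kb in control liver, and Itgav was the highest alpha subunit with 3.75 per kb. Itga9, Itga5 and Itga1 came next among the alpha subunits at 1.64, 1.51 and 1.07 per kb, and without a spread these neighbours cannot be ordered. Among laminin chains Lamc1, a chain of most laminin trimers, was highest with 1.54 per kb in control liver, close to Nid1 with 1.53 per kb.

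**Figure D1:**
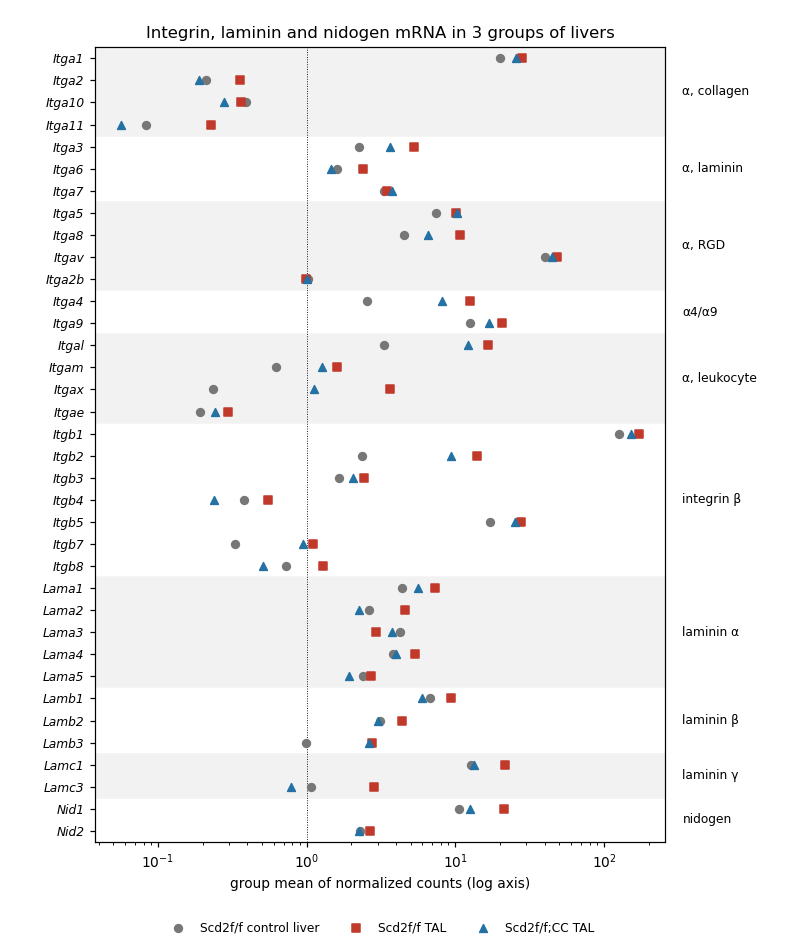
Group means of normalized counts for the members reported, on a log axis, grouped by role, with circles for control liver, squares for Scd2f/f TAL and triangles for Scd2f/f;CC TAL. The dotted line marks a mean of 1. Each point is 1 deposited group mean, so no error bars are drawn, and Itgb1 lies highest with means of 126 to 173.

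Between untreated and treated mice, 34 of the 37 members had a higher mean in Scd2f/f TAL than in control liver, the exceptions being Itga10, Itga2b and Lama3. Of all 16755 genes, 9004 had a higher mean in Scd2f/f TAL. With a mean over the 3 groups of at least 1, 10 of 29 members were at least 2-fold higher, where 6.40% of all genes were, and 0 were at least 2-fold lower, where 2.89% were. The 10 were Itga3, Itga4, Itga8, Itgal, Itgam, Itgax, Itgb2, Lamb3, Lamc3 and Nid1. With no limit on the mean the count was 13 of 37, Itga11 and Itgb7 among those added, against 9.37% of all genes, and 0 were lower against 4.69%. The median log2 ratio was 0.69 over the 29 members and 0.71 over the 37, against 0.03 over the 11784 genes and 0.04 over all. Itgam, Itgax and Lamb3 had means under 1 in control liver and passed the limit through the treated groups, and Lamc3 passed it through Scd2f/f TAL. For these 4 the limit favoured a higher treated mean, without fixing a ratio of 2, so their counts are no support.

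Within the treated mice, Scd2f/f;CC TAL had a lower mean than Scd2f/f TAL for 33 of the 37 members, and for 49.6% of all genes. The 4 other members were Itga5, Itga7, Itga2b and Lama3. With a mean of at least 1, Itgax, Lama2 and Lamc3, 3 of 29, were at least 2-fold lower, where 1.54% of all genes were, and 0 were at least 2-fold higher, where 0.645% were. Of the 3, Itgax and Lamc3 passed the limit through Scd2f/f TAL, the group in which they were high. With no limit on the mean the count was 7 of 37, Itga11, Itgb4 and Itgb8 among those added, against 4.07% of all genes, and 0 were higher against 1.82%. The median log2 ratio was -0.42 over the 29 members and -0.45 over the 37, against 0.01 over the 11784 genes and 0 over all. Both comparisons use the same mean of Scd2f/f TAL, so that mean enters the 2 ratios in opposite directions.

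**Figure D2:**
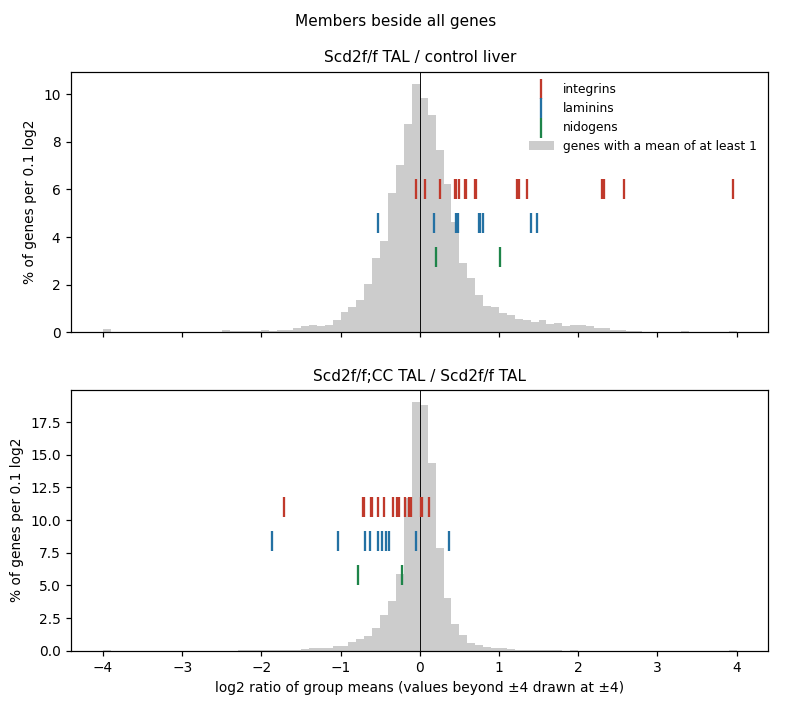
Histogram of log2 ratios of group means over all 11784 genes of sufficient mean (at least 1), in percent of genes per bin of 0.1, with the 29 members drawn as ticks (red integrins, blue laminins, green nidogens; tick height has no meaning). The members' medians are 0.69 for Scd2f/f TAL over control liver (top) and -0.42 for Scd2f/f;CC TAL over Scd2f/f TAL (bottom).

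The leukocyte integrins Itgax, Itgb2 and Itgal had the widest ratios of Scd2f/f TAL to control liver among the members. Itgb2, the beta subunit shared by the leukocyte alpha subunits Itgal, Itgam and Itgax, had means of 2.36 in control liver, 14.1 in TAL of Scd2f/f mice and 9.29 in TAL of Scd2f/f;CC mice. Itgal, the alpha subunit of the lymphocyte receptor for ICAM1, had means of 3.32, 16.7 and 12.2 in the same order. Both were at least 5-fold above control liver in Scd2f/f TAL, 5.97-fold for Itgb2 and 5.03-fold for Itgal. Itgax, known as Cd11c and expressed by dendritic cells and by macrophages of inflamed tissue, had means of 0.235, 3.66 and 1.12. Its mean in Scd2f/f TAL was 15.6-fold above control liver, the highest ratio of all members, but rests on a control mean far under 1, and its log2 ratio of 3.96 became 1.92 with 1 added to each mean. Itgam, the Cd11b subunit of neutrophils and macrophages, had means of 0.621, 1.59 and 1.26. Thus control liver was the lowest and Scd2f/f TAL the highest of the 3 means for each of these genes. In Scd2f/f;CC TAL the ratio to Scd2f/f TAL was 0.659 for Itgb2, 0.731 for Itgal and 0.792 for Itgam. Itgax was 3.27-fold lower, a log2 ratio of -1.71. Itgae, the partner of Itgb7 on intraepithelial lymphocytes, stayed under 1 in every group, with means of 0.191, 0.298 and 0.242. Itgb7 pairs with Itgae and with Itga4 and had means of 0.332, 1.10 and 0.945.

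Itga4, which with Itgb1 forms the leukocyte receptor of VCAM1 and fibronectin, had means of 2.54 in control liver, 12.5 in TAL of Scd2f/f mice and 8.19 in TAL of Scd2f/f;CC mice. It lay 4.92-fold above control liver in Scd2f/f TAL, and the Scd2f/f;CC TAL mean 3.22-fold. Its structural relative Itga9, which binds tenascin-C and osteopontin, differed less, with means of 12.6, 20.6 and 16.9. The leukocyte alpha subunits Itgal, Itgam, Itgax and Itgae together made up 6.68% of the summed alpha subunit level per kb in control liver, 19.7% in TAL of Scd2f/f mice and 15.7% in TAL of Scd2f/f;CC mice.

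Most macrophage, T and NK cell, neutrophil and dendritic cell markers moved with these integrins, and their part in the result was not tested. In bulk RNA, a change in the number of cells of a type and a change in RNA per cell cannot be told apart. All 10 macrophage and monocyte markers were at least 2-fold higher in Scd2f/f TAL than in control liver, against 9.37% of all genes with no limit on the mean. Their median log2 ratio was 2.21, or 2.10 over the 9 with a mean of at least 1. The summed means of the 10 markers were 106 in control liver, 418 in TAL of Scd2f/f mice and 339 in TAL of Scd2f/f;CC mice. Of these, Cd5l had means of 22.9, 114 and 99, and Lyz2 had 24.9, 107 and 63.7. From Scd2f/f TAL to Scd2f/f;CC TAL the median log2 ratio of the macrophage markers was -0.37, beside -0.60 for Itgb2. The 10 T and NK cell markers summed to 2.12, 7.10 and 4.24, all with a mean over the 3 groups under 1, and 8 of them were at least 2-fold higher in Scd2f/f TAL than in control liver. The 2 of highest mean over the 3 groups were Cd4, with means of 0.442, 0.817 and 0.883, and Trbc2, with 0.266, 1.18 and 0.625. Thus Cd4 was higher in Scd2f/f;CC TAL than in Scd2f/f TAL, while the other 9 of the 10 were lower. The 4 neutrophil markers in the table, of 8 listed, summed to 1.18, 4.74 and 3.68, with S100a9 at 0.355, 1.94 and 1.59 and Csf3r at 0.477, 1.46 and 1.17. The 6 dendritic cell markers in the table summed to 4.36, 6.82 and 5.60, with Zbtb46 at 2.62, 3.35 and 3.31 and Clec9a at 1.03, 1.48 and 1.15 as the highest. Of the B and plasma cell markers, 5 were in the table and summed to 4.93, 5.38 and 4.55, of which Jchain gave 4.05, 3.67 and 2.68, and Cd79b had 0.304, 0.54 and 0.607. Unlike the integrins, 4 of these 5 had a higher mean in Scd2f/f;CC TAL than in Scd2f/f TAL, with a median log2 ratio of 0.10. No gene of the table has a mean of 0 in any group.

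**Figure D3:**
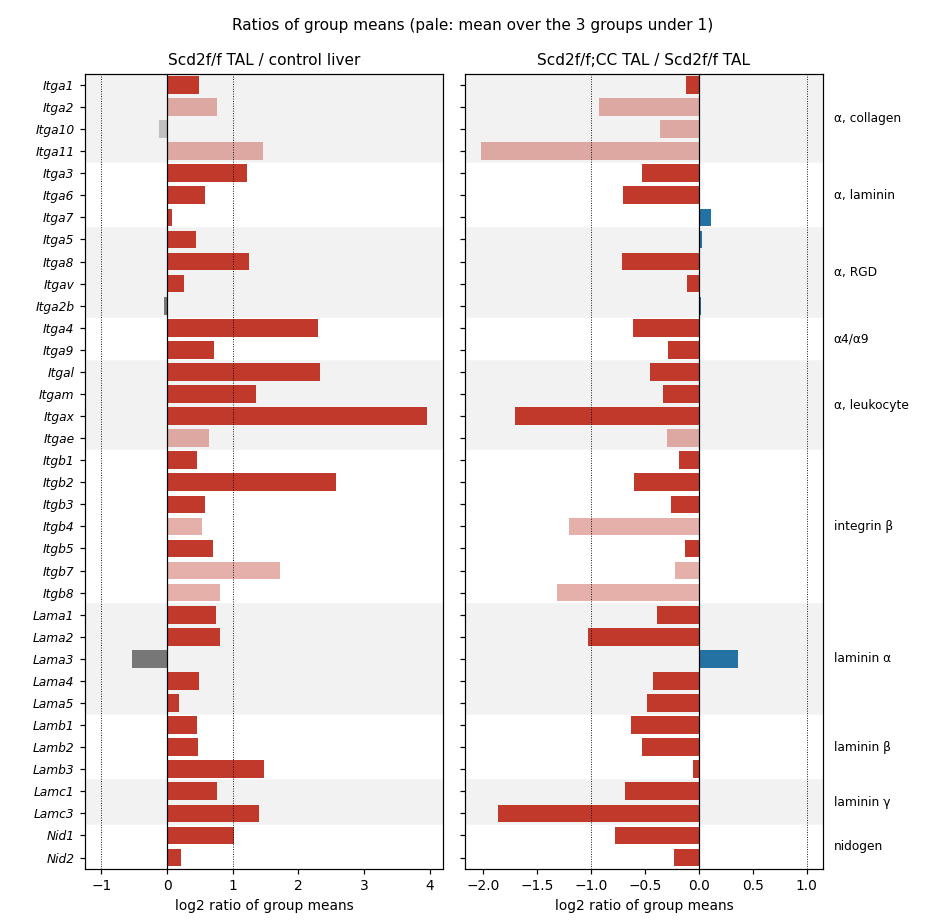
Log2 ratios of group means for the members reported, Scd2f/f TAL over control liver on the left and Scd2f/f;CC TAL over Scd2f/f TAL on the right, with pale bars for members whose mean over the 3 groups is under 1. Bar color gives the group with the higher mean (red Scd2f/f TAL, gray control liver, blue Scd2f/f;CC TAL), and dotted lines mark a ratio of 2 in either direction. Itgax has the longest bar on the left at 3.96, and on the right only Itga5, Itga7, Itga2b and Lama3 lie above 0.

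Among the matrix-binding alpha subunits, Itgav, Itga5 and Itga1 had a high level and differed by ratios under 1.5. Itgav, the alpha subunit of receptors for vitronectin and for latent TGF-beta, had means of 40.3 in control liver, 48.2 in TAL of Scd2f/f mice and 44.6 in TAL of Scd2f/f;CC mice. Itga5, the fibronectin receptor, had 7.44, 10.1 and 10.3, and Itga1, a collagen receptor of stellate and endothelial cells, had 19.9, 28 and 25.7. For these 3 genes the ratio between the treated groups lay from 0.918 for Itga1 to 1.02 for Itga5. Itga8, which binds nephronectin and in liver marks stellate cells, had means of 4.54, 10.8 and 6.57. It was 2.38-fold higher in Scd2f/f TAL than in control liver and 1.64-fold lower in Scd2f/f;CC TAL than in Scd2f/f TAL. Itga2b, the platelet subunit and partner of Itgb3, had means of 1.02, 0.989 and 1, nearly equal in the 3 groups. The 3 platelet markers in the table, of 7 listed, summed to 0.987, 0.927 and 0.955, with Ppbp and Gp1ba the highest by their mean over the 3 groups.

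The laminin receptors Itga3, Itga6 and Itga7 differed among themselves. Itga3, found on epithelial and endothelial cells, had means of 2.26, 5.28 and 3.65 in control liver, Scd2f/f TAL and Scd2f/f;CC TAL. It was 2.34-fold higher in Scd2f/f TAL than in control liver and 1.45-fold lower in Scd2f/f;CC TAL than in Scd2f/f TAL. Itga6, which pairs with Itgb4 in the hemidesmosomes of epithelia, had 1.6, 2.39 and 1.47. Itgb4 itself had 0.377, 0.548 and 0.237, under 1 in all groups and 2.31-fold lower in Scd2f/f;CC TAL than in Scd2f/f TAL. Its log2 ratio of -1.21 became -0.94 with 0.1 and -0.32 with 1 added to each mean, both short of 2-fold. For Itga7, a muscle laminin receptor, the means of 3.31, 3.47 and 3.76 lay within a ratio of 1.14. The remaining collagen receptors were low: Itga2 had 0.211, 0.358 and 0.188, Itga10 had 0.391, 0.360 and 0.280, and Itga11 had 0.0829, 0.229 and 0.0564. Itga11, a fibroblast collagen receptor, was 4.06-fold lower in Scd2f/f;CC TAL than in Scd2f/f TAL, near the lowest mean of any gene there, 0.0349, and its log2 ratio of -2.02 became -1.07 with 0.1 added to each mean.

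Of the beta subunits other than Itgb2, Itgb4 and Itgb7, Itgb1 had means of 126, 173 and 152 and Itgb5 had 17.0, 27.5 and 25.1. Both were higher in Scd2f/f TAL than in control liver, by ratios of 1.37 and 1.62, and the treated groups differed by ratios of 0.879 and 0.913. Itgb3, the partner of Itgav and Itga2b, had 1.64, 2.44 and 2.04. Itgb8, which with Itgav activates latent TGF-beta and in liver is found in biliary and stellate cells, had 0.729, 1.28 and 0.512, and was 2.50-fold lower in Scd2f/f;CC TAL than in Scd2f/f TAL. With 1 added to each mean its log2 ratio moved from -1.32 to -0.59.

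All laminin chains and nidogens but Lama3 had their highest mean in Scd2f/f TAL. Lamc1 had means of 12.7 in control liver, 21.6 in TAL of Scd2f/f mice and 13.4 in TAL of Scd2f/f;CC mice. Nid1, which binds the short arm of Lamc1 and links it to type IV collagen, had 10.6, 21.4 and 12.5, and Lamb1 had 6.79, 9.30 and 6.00. Between the treated groups the ratio was 0.620 for Lamc1, 0.645 for Lamb1 and 0.584 for Nid1, and that of Scd2f/f;CC TAL to control liver 1.06, 0.884 and 1.18. Lamc3, a gamma chain of vessels, nerve and other sites outside epithelial basement membrane, had 1.07, 2.84 and 0.780. It was 2.65-fold higher in Scd2f/f TAL than in control liver and 3.64-fold lower in Scd2f/f;CC TAL than in Scd2f/f TAL, and its log2 ratio of -1.86 became -1.11 with 1 added to each mean. Its share of the summed gamma chain level per kb was 10.1% in control liver, 14.7% in TAL of Scd2f/f mice and 7.13% in TAL of Scd2f/f;CC mice. Nid2, the second nidogen, had 2.29, 2.65 and 2.26.

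The alpha chain sets where a laminin is found, and the 5 alpha chains were unlike. Lama2, the chain of muscle, nerve and mesenchymal basement membrane, had means of 2.64, 4.61 and 2.26, a 2.04-fold lower mean in Scd2f/f;CC TAL than in Scd2f/f TAL. Its log2 ratio of -1.028 became -0.997 with 0.1 and -0.78 with 1 added to each mean, both short of 2-fold. Lama1, the embryonic chain, had 4.36, 7.33 and 5.58, and Lama4, a chain of endothelium, had 3.84, 5.38 and 4.01. Lama5, the broadly expressed chain of adult epithelium and vessels, had 2.40, 2.71 and 1.94. All 4 were highest in Scd2f/f TAL. Lama3, an epithelial chain, was the exception with 4.23, 2.93 and 3.77, lowest in Scd2f/f TAL. Lama3 made up 25.7% of the alpha chain level per kb in control liver, 13.7% in TAL of Scd2f/f mice and 22.4% in TAL of Scd2f/f;CC mice, while Lama1 made up 29.3%, 37.9% and 36.8%.

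Lamb3, a beta chain that pairs with Lama3 in epithelia, did not share its direction. Lamb3 had means of 0.985, 2.74 and 2.64, 2.78-fold higher in Scd2f/f TAL than in control liver and nearly equal in the treated groups. It is the only laminin chain at least 2-fold above control liver in Scd2f/f;CC TAL, 2.68-fold, and its span in the table also covers Hsd11b1 and G0s2 on the other strand, with means of up to 294 and 42.9. The library kit as named keeps no strand, and although their exons share 0 bases with those of Lamb3 in GENCODE M21, the value of Lamb3 is uncertain for that reason. The remaining beta chain, Lamb2, had 3.14, 4.35 and 3.01.

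**Figure D4:**
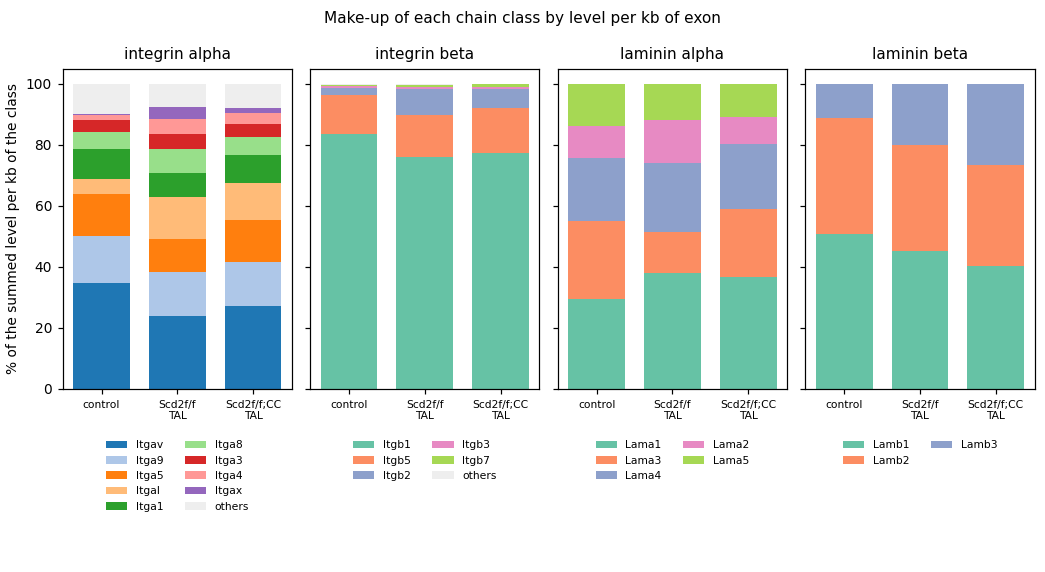
Stacked bars of the share of each gene in the summed level per kb of exon of its class, in percent, for integrin alpha, integrin beta, laminin alpha and laminin beta chains in the 3 groups. Genes of small share are joined as others. Itgal takes 4.69% of the alpha subunits in control liver and 13.6% in Scd2f/f TAL, and Lama3 25.7% and 13.7% of the laminin alpha chains.

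The Scd2f/f;CC mice were also set against control liver. Of the 10 members at least 2-fold higher in Scd2f/f TAL with a mean of at least 1, 6 were also at least 2-fold above control liver in Scd2f/f;CC TAL: Itga4, Itgal, Itgam, Itgax, Itgb2 and Lamb3. Both ratios have the same control mean as denominator, so part of this overlap is built in and it is no support. Itgam, Itgax and Lamb3 again passed the limit through the treated groups. Over all 29 members the count was also 6, where 4.51% of all genes were at least 2-fold higher. At least 2-fold lower were 0 members and 2.55% of all genes. With no limit on the mean, Itgb7 made it 7 of 37 higher, against 6.41% of all genes, and 0 lower, against 4.64%. The ratios to control liver in Scd2f/f;CC TAL were 3.22 for Itga4, 3.67 for Itgal, 2.03 for Itgam, 4.77 for Itgax and 3.94 for Itgb2. The log2 ratio of Itgax, 2.25, became 0.78 with 1 added to each mean, and that of Itgam, 1.02, became 0.92 with 0.1 added, both short of 2-fold. The 4 others had ratios of 1.62 for Itga3, 1.45 for Itga8, 0.729 for Lamc3 and 1.18 for Nid1. Over the 17 integrins with a mean of at least 1, the median log2 ratio of Scd2f/f;CC TAL to control liver was 0.47, and over the 12 laminins and nidogens it was -0.04, against 0.04 over all 11784 genes. In Scd2f/f TAL these medians were 0.69 for the integrins and 0.62 for the laminins and nidogens. Genotype and treatment both differ between Scd2f/f;CC TAL and control liver, and the difference between integrins and laminins was not tested.

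HSC and portal fibroblast markers moved with the laminins and nidogens, and their part in the result was not tested. Of 13 such markers, 11 were higher in Scd2f/f TAL than in control liver, with a median log2 ratio of 0.67. All 13 were lower in Scd2f/f;CC TAL than in Scd2f/f TAL, with a median log2 ratio of -1.06. With no limit on the mean, 7 of them were at least 2-fold lower, against 4.07% of all genes. Among the 11 with a mean of at least 1, 5 were, against 1.54% of all genes, with a median of -0.93. The summed means of the 13 were 233 in control liver, 387 in TAL of Scd2f/f mice and 229 in TAL of Scd2f/f;CC mice. Dcn, the proteoglycan decorin, had means of 70.3, 118 and 67.2, and Reln, a marker of quiescent HSC, had 73.0, 89.2 and 71.6. The 10 endothelial markers summed to 147, 186 and 188, with a median log2 ratio between the treated groups of -0.06. Among them, Stab2 had 36.9, 42.8 and 45.9, and Kdr had 29.8, 34.9 and 40.2. The 7 cholangiocyte markers in the table, of 9 listed, summed to 12.6, 15.3 and 11.1, 6 of them lower in Scd2f/f;CC TAL than in Scd2f/f TAL. With no limit on the mean, 5 were at least 2-fold lower. Only 3 of the 7 had a mean of at least 1, and 1 of those was at least 2-fold lower. Of the 7 markers, Sox9 had means of 3, 5.03 and 3.52. The 4 mesothelial markers in the table summed to 2.43, 0.803 and 0.611, with Upk3b at 0.786, 0.169 and 0.197 and Msln at 0.796, 0.0853 and 0.0887.

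Other components of the basement membrane were mostly lower in Scd2f/f;CC TAL. Of 18 in the table, 17 had a lower mean in Scd2f/f;CC TAL than in Scd2f/f TAL, and among the 14 with a mean of at least 1 the median log2 ratio was -0.47, with 2 at least 2-fold lower and 0 higher. Of all genes with such a mean, 1.54% were at least 2-fold lower and 0.645% higher. Between Scd2f/f TAL and control liver the median was 0.54, with 1 at least 2-fold higher, Col4a5, where 6.40% of all genes were. Col4a5, a chain of type IV collagen, had means of 1.05 in control liver, 2.22 in TAL of Scd2f/f mice and 0.785 in TAL of Scd2f/f;CC mice. Smoc2, a matricellular protein, had 2.94, 3.87 and 1.58, and Sparc, a collagen-binding glycoprotein, had 22.9, 38.5 and 23.9. Fbln2, a fibulin of portal fibroblasts, had 1.27, 1.45 and 0.761, and Agrn, a heparan sulfate proteoglycan, had 10.3, 16.9 and 14.5.

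Ligands of integrins other than laminins included genes high in Scd2f/f TAL and abundant plasma proteins of hepatocytes. Of 19 in the table, all with a mean of at least 1, 6 were at least 2-fold higher in Scd2f/f TAL than in control liver and 5 at least 2-fold lower in Scd2f/f;CC TAL than in Scd2f/f TAL, with medians of 0.41 and -0.39. The shares of all genes with such a mean were 6.40% and 1.54%. Icam1, a ligand of Itgb2 integrins, had means of 5.96, 17.7 and 11.3 in control liver, Scd2f/f TAL and Scd2f/f;CC TAL. Vcam1, the ligand of Itga4, had 9.41, 27.6 and 13.5. Tnc, a ligand of Itga9, had 1.09, 3.44 and 1.30. Icam1, Vcam1 and Tnc were named for their wide ratios of Scd2f/f TAL to control liver, so their high means in Scd2f/f TAL are no support. Of the 19 ligands, 13 had a lower mean in Scd2f/f;CC TAL than in Scd2f/f TAL and 6 a higher one. Thbs1, which binds several integrins and activates TGF-beta, had 3.63, 7.19 and 2.29, and Spp1, or osteopontin, had 52.3, 45.1 and 14.8, so that Spp1 was not higher in Scd2f/f TAL than in control liver.

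Genes of the adhesion plaque, which links integrins to actin, differed little. Of 26 genes in the table, 23 had a mean of at least 1, and their median log2 ratios were 0.19 between Scd2f/f TAL and control liver and -0.08 between the treated groups. Of these, 2 were at least 2-fold higher in the first comparison, Fermt3 and Apbb1ip, which activate integrins in blood cells. Of all genes with such a mean 6.40% were, so 2 of 23 lies near that share. Fermt3, the hematopoietic kindlin, had means of 1.17, 4.43 and 3.22, and Apbb1ip, which couples the GTPase Rap1 to talin, had 1.20, 4.50 and 3.50. Parvb, a partner of integrin-linked kinase, had 1.31, 2.05 and 1.75. Tln1, the talin that binds beta subunit tails, had 56.3, 87.9 and 42.5. It was the only gene of the 23 at least 2-fold lower in Scd2f/f;CC TAL than in Scd2f/f TAL, where 1.54% of all genes were. Zyx, a stress fiber protein, had 12.2, 16.6 and 12.

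Of 6 other laminin receptors, 0 were at least 2-fold different between the treated groups, and all 6 had a lower mean in Scd2f/f;CC TAL. Cd44, a hyaluronan receptor, had means of 3.30, 21 and 14.6, Rpsa, a ribosomal protein also described as a laminin receptor, had 275, 155 and 148, and Sgcb, a sarcoglycan, had 1.66, 2.47 and 2.19. Bcam, a receptor of Lama5, had 1.72, 2.05 and 1.23, and Sgce had 2.17, 2.75 and 1.6. Thus Cd44 alone of the 6 was at least 2-fold above control liver in Scd2f/f TAL, where 6.40% of all genes were. Of 8 tetraspanins, membrane proteins that organize integrins, Cd53, Cd63 and Cd9 were at least 2-fold higher in Scd2f/f TAL than in control liver among the 7 with a mean of at least 1, and 1, Tspan4, was lower, with 22.8, 10.8 and 9.74. Of all genes, 6.40% were at least 2-fold higher in that comparison and 2.89% lower. Cd53, of leukocytes, had 2.17, 8.71 and 6.71, and Cd9 had 6.83, 17.0 and 8.54. Cd63, of late endosomes, had 1.99, 6.40 and 1.77, the only tetraspanin at least 2-fold lower in Scd2f/f;CC TAL than in Scd2f/f TAL.

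**Figure D5:**
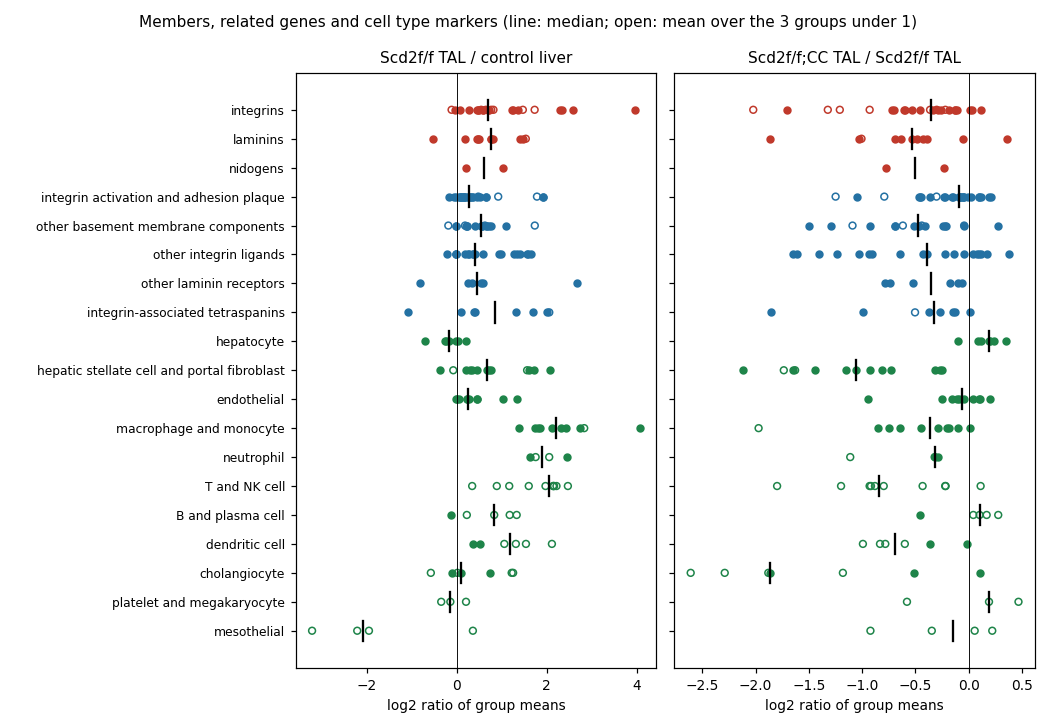
Log2 ratios of group means for the integrins, laminins and nidogens (red), related gene lists (blue) and cell type markers (green), Scd2f/f TAL over control liver on the left and Scd2f/f;CC TAL over Scd2f/f TAL on the right. Each point is a gene, open where its mean over the 3 groups is under 1, and the line is the median of all points of a row. The macrophage and monocyte markers have a median of 2.21 on the left, and the HSC and portal fibroblast markers one of -1.06 on the right.

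In the genome, the members lie on 15 chromosomes, and several are neighbours. Itgam ends 1385 bases before Itgax on the plus strand of chromosome 7, where Itgal also lies, from 127296260 to 127335139. Itga2 and Itga1 follow each other on the minus strand of chromosome 13 with a gap of 26036 bases. Between the treated groups Itga2 and Itga1 had ratios of 0.525 and 0.918, and Itgax and Itgam 0.306 and 0.792. Coordinates are those of the table on mm10, and all 37 genes overlapped the gene of the same name in GENCODE M21. In 9 members the span also covers another gene of the table, with a mean of at least 1 in 4 of them, Itga1, Itga7, Lamb3 and Nid2. For Itga7 this is Mettl7b, with means of 206 to 273 and 9 shared exon bases, and for Itga4 it is Cerkl, with a mean under 1 over the 3 groups and 1124 of 13978 exon bases shared. For Nid2 it is 2700060E02Rik on the other strand, with means of 36.8, 30.6 and 30.7, and shared exon bases were not determined. Reads of such genes cannot be told apart by strand, so the values of Itga7, Itga4 and Nid2 carry that uncertainty.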

How the data were processed

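Polyadenylated RNA of liver was sequenced from 9 mice, 3 in each of 3 groups, after preparation with the TruSeq v2 kit. The submitters' processing notes list STAR 2.6.1, Partek 6 and mm10. Per the methods of the study, the authors assigned reads to Gencode M3 genes with the E/M quantifier of Partek, scaled samples by upper quartile and compared groups by Partek Gene Specific Analysis. The deposited table has 18 columns. The signal used here is the deposited least-squares mean of normalized counts per group, 4 columns with 3 significant digits, in which the mean of Scd2f/f TAL appears in 2 identical columns. The authors' p-values, false discovery rates, ratios and fold changes were not used. Sample groups follow the sample titles. No column holds a single sample, so the depth is unknown and no test was run.

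Ratios of group means were computed without a pseudocount. A gene was counted at a ratio of at least 2 in either direction and a mean over the 3 groups of at least 1. Cell type markers were counted with no limit on the mean unless stated. Exon lengths were the union of exons in GENCODE M21 on GRCm38, and promoters came from RefSeq on GRCm38.p6. The members and gene lists were chosen with earlier results of these data known. Members are named, and so are Scd2, Col1a1, in each of 5 related lists the 3 genes of widest log2 ratio in each of the first 2 comparisons with a mean of at least 1, and the 2 markers of highest mean per cell type. Items withheld from this text, a member and a marker among them, are not reported here, though counts, sums and medians include them. Other genes were named beside a count after their values were seen. Alternatives were pseudocounts of 0.1 and 1, no limit and a limit of 5 on the mean, a fold of 1.5, centring on the median of protein-coding genes, and protein-coding genes alone as background. The steps were tested on simulated data. Python 3.11.15, NumPy 2.4.6, pandas 2.3.3 and Matplotlib 3.10.9 were used.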

Additional observations from a re-analysis of the deposited data

How the results depend on the processing

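No paired analysis was possible because the table holds group means and no column carries a replicate number, and for the same reason no replicate could be left out. With no spread between mice, a count or ratio was taken as moved when it changed by over 1.5 times. No ratio of a member past 2-fold turned its direction under any alternative run, but none could. A pseudocount adds the same value to both means and cannot turn a ratio, and the centring shift was far smaller than a 2-fold ratio. Limits and folds leave ratios as they are, so this is no support. With a pseudocount of 1, 5 members (Itga4, Itga8, Itgal, Itgax and Itgb2) were at least 2-fold higher in Scd2f/f TAL than in control liver instead of 10, and 3 (Itga4, Itgal and Itgb2) instead of 6 in Scd2f/f;CC TAL than in control liver. The shares of all genes with that pseudocount were not computed, so the fall of both counts is no result about the members. With a limit of 5 on the mean, passed by 14 members, these counts were 5 and 3, against 3.48% and 2.55% of all genes, and 0 instead of 3 members were at least 2-fold lower in Scd2f/f;CC TAL than in Scd2f/f TAL, against 0.742%, so those 3 rest on genes of low level. With no limit that count was 7, and at a fold of 1.5 it was 10, where 4.91% of all genes were counted. The other 44 values of counts and medians moved less, centring on the median of protein-coding genes included. Protein-coding genes alone gave background shares within 1.5 times. The means under 1 and the unknown depth limit Itga2, Itga10, Itga11, Itgae, Itgb4, Itgb7 and Itgb8 most.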
